A study of Arabidopsis thaliana with 24 samples.

Results

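Leaves of the nas4x-1 mutant were compared with wild type leaves after Fe had been withheld from both. The comparison rests on 6 of the 24 ATH1 arrays of the study, 3 of nas4x-1 leaves at - Fe and 3 of wild type leaves at - Fe. They were chosen by their titles and paired by biological replicate, and each replicate was harvested in 1 of 3 consecutive weeks. The nas4x-1 plants carried T-DNA insertions in all 4 NICOTIANAMINE SYNTHASE (NAS) genes in the Columbia background, and the wild type plants carried none. All plants were raised in hydroponic culture at 10 µM FeNa-EDTA until 4 weeks of age. They were then kept for 7 days at 0 µM (- Fe) or at 10 µM (+ Fe), and rosette leaves were taken at 5 weeks. The 6 leaf arrays at + Fe, also 3 of nas4x-1 and 3 of wild type, show where a difference at - Fe departs from that at + Fe. They were fitted together with the arrays at - Fe, so they also enter the SE and adjusted p of the differences at - Fe. The sources used here do not say how many plants gave 1 sample. Shifts shared by all leaf groups in a harvest week were removed in the fit. The p-values thus rest on how far the differences between leaf groups varied over the 3 harvests. The 3 arrays per group limit the precision of every value.

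Nicotianamine is a small metal chelator made by the NAS enzymes. It binds Fe, Cu and Zn and keeps them mobile in the phloem and between cells, so that leaves of plants short of it distribute these metals poorly. Plant cells that sense a lack of Fe switch on transcription factors of the bHLH family and the IRON MAN peptides, which raise genes for Fe uptake and movement, and they lower ferritins and other Fe proteins.

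All values are signals, the brightness of a probe set on a linear scale after the authors' normalization. A log2 fold change is that of nas4x-1 over wild type on the log2(signal + 16) scale, so it understates the change of dim probe sets. The threshold was an adjusted p of 0.05 in limma over 22746 probe sets. Arrays of 1 group had correlations between 0.961 and 0.979. The 1 measured mesophyll marker, RCA (Rubisco activase), had 4735, 4436 and 4292 in nas4x-1 and 4770, 4656 and 3904 in wild type at - Fe. The summed signal of the 4 measured root markers of 10 was 13.3 to 40.3 in nas4x-1 and 13.0 to 27.5 in wild type, close to the lowest signals on the arrays. Both guard cell and epidermis markers that were measured, of 7, missed the threshold, and their summed signal was 264 to 602 in nas4x-1 and 179 to 536 in wild type. None of the 8 phloem and xylem markers was matched to a probe set here.

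Of the probe sets tested at - Fe, 26 passed (0.114%), with 9 higher in nas4x-1 (0.0396%) and 17 lower (0.0747%). At an unadjusted p under 0.05 there were 1575 higher (6.92%) and 1583 lower (6.96%). All 26 had the same sign in the 3 weeks and no overlap between the 3 and 3 arrays, which 1761 probe sets (7.74%) also showed upward and 1468 (6.45%) downward. Of the 9 higher probe sets 7 were matched to 1 gene, as were all 17 lower ones. Of the 26, 10 lay in 5 pairs of probe sets whose levels were exchanged between groups, described next. Outside these pairs 4 were higher and 12 lower. When the 10 were left out of the fit, an alternative chosen after the data were seen, 1 higher and 6 lower probe sets passed. At + Fe the same comparison of genotypes had 7 higher (0.0308%) and 10 lower (0.044%) probe sets, and 5 of the 26 passed at both Fe supplies.

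**Figure D1:**
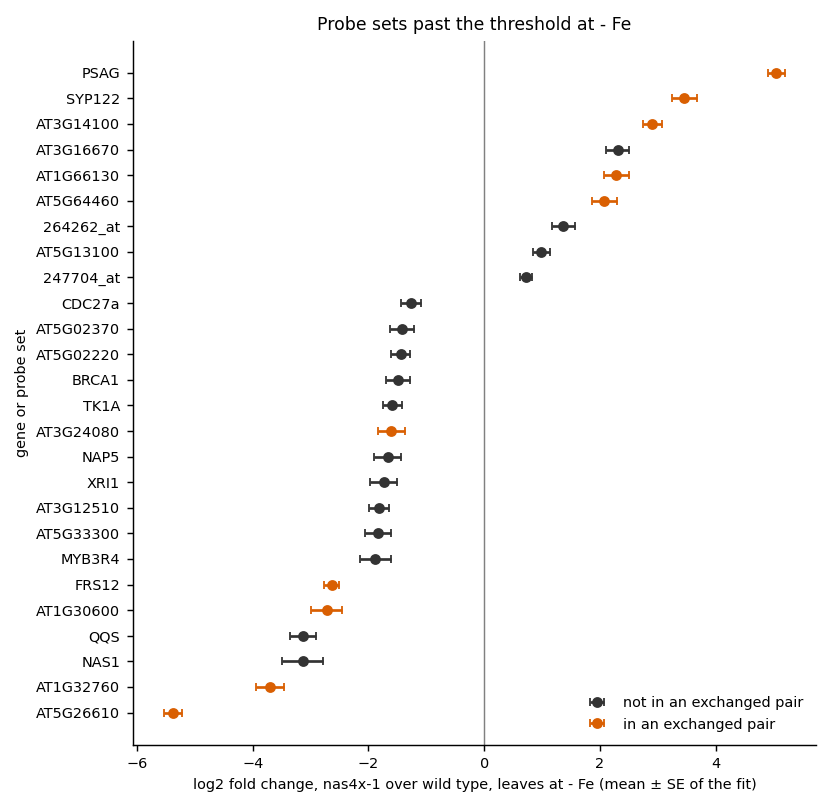
Log2 fold change of nas4x-1 over wild type leaves at - Fe (x axis, mean ± SE of the fit, n = 3 arrays per group) for each of the 26 probe sets past the threshold (y axis, 9 higher above and 17 lower below). The largest changes in both directions, PSAG at 5.05 and AT5G26610 at -5.38, belong to an exchanged pair, and the points outside the pairs lie between -3.14 and 2.31.

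The brightest differences came in pairs. In each, one probe set was bright in nas4x-1 and dim in wild type at - Fe, and a second one had the same levels the other way round. PSAG, a subunit of photosystem I, had 4154, 4084 and 4735 in nas4x-1 at - Fe and 146, 99.0 and 103 in wild type at - Fe. AT5G26610 had 122, 84.1 and 78.0 in nas4x-1 and 4217, 4465 and 4954 in wild type. The wild type arrays at - Fe stood alone in this, since PSAG at + Fe had 4436 to 5087 in nas4x-1 and 4656 to 5177 in wild type. The log2 fold changes at - Fe were 5.05 (SE 0.153, adjusted p = 1.97e-07) for PSAG and -5.38 (SE 0.157, adjusted p = 1.97e-07) for AT5G26610.

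A further 2 pairs had the same pattern, with only wild type at - Fe apart. AT3G14100 had 599, 416 and 382 in nas4x-1 and 40.3, 53.7 and 48.4 in wild type at - Fe. Its partner FRS12, a FAR1-related transcription factor, had 60.1, 61.4 and 60.1 in nas4x-1 and 575, 455 and 375 in wild type. SYP122, a syntaxin of the plasma membrane, had 169, 258 and 205 in nas4x-1 and 2.61, 6.10 and 4.42 in wild type. Its partner AT1G32760 had 6.68, 3.92 and 6.12 in nas4x-1 and 172, 451 and 237 in wild type. At + Fe these 4 probe sets had log2 fold changes between -0.03 and 0.60, and none passed.

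The remaining 2 pairs were split by genotype at both Fe supplies. AT1G66130 had 212, 144 and 148 in nas4x-1 and 23.9, 19.2 and 20.5 in wild type at - Fe, and AT1G30600 had 19.5, 21.3 and 27.0 in nas4x-1 and 329, 175 and 234 in wild type. AT5G64460 had 416, 323 and 360.3 in nas4x-1 and 59.3, 51.2 and 128 in wild type, and AT3G24080 had 50.9, 60.0 and 127 in nas4x-1 and 246, 235 and 296 in wild type. All 4 also passed at + Fe in the same directions, with log2 fold changes of 2.08, -2.65, 1.68 and -1.68. At - Fe AT3G24080 (-1.61, adjusted p = 0.045) passed in 0 of the 6 fits that left out 1 of the arrays, with the same sign in each. The members of the AT5G64460 pair lay 9649 rows apart in the deposited table, as did those of the SYP122 pair. CcdA and NUDX13, a pair at + Fe described below, also lay 9649 rows apart. The distance was 17705 for the PSAG pair, 7049 for the AT3G14100 pair and 6705 for the AT1G66130 pair. It was 5781 for CYP72A13 and its partner, the other pair at + Fe. Whether values of these rows were exchanged in the deposited table was not tested, and the 10 probe sets are given as measured. The pairs were recognised from their values, so they are a description. Their small p-values enter the adjustment over all probe sets and so affect which others passed, as the lower counts without them given above show.

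**Figure D2:**
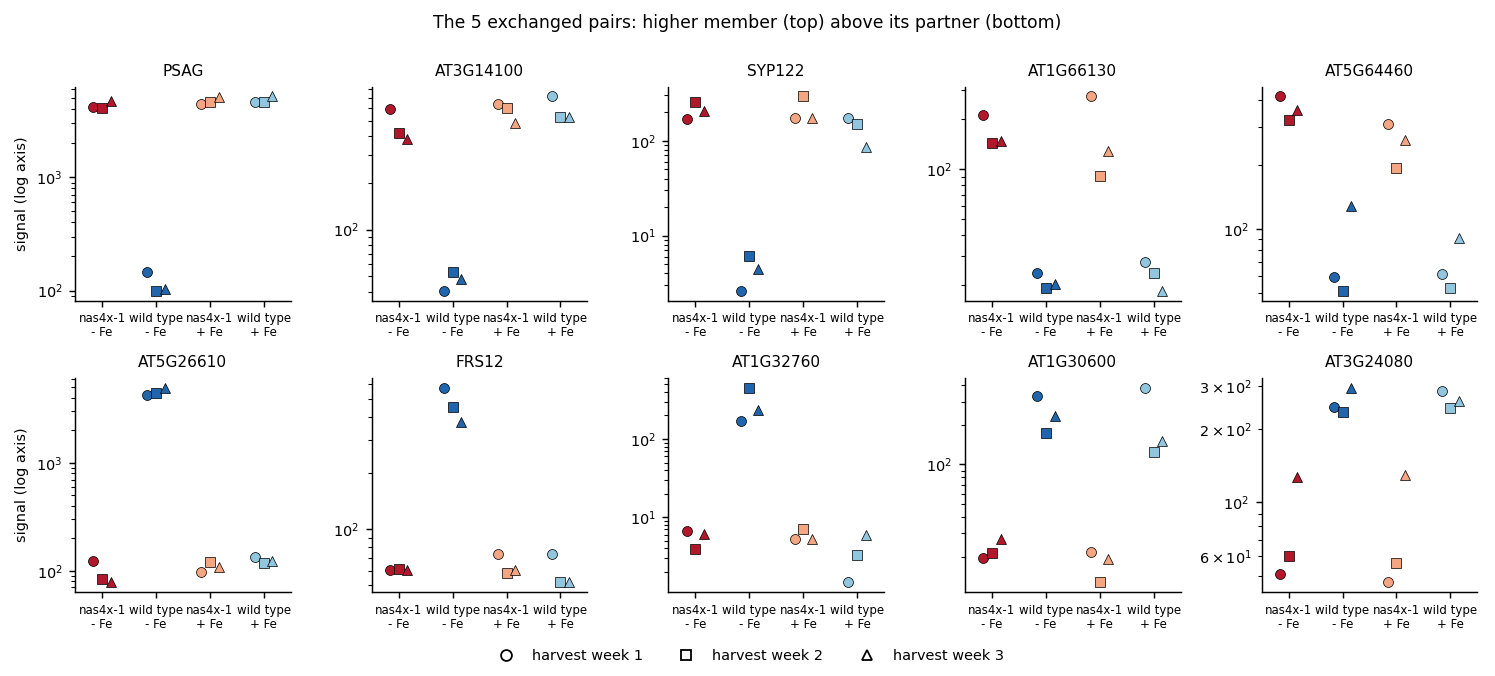
Signal (y axis, log scale) of the 10 probe sets of the 5 exchanged pairs on each of the 12 leaf arrays, grouped on the x axis as nas4x-1 - Fe, wild type - Fe, nas4x-1 + Fe and wild type + Fe, with a marker shape for each harvest week. In the first 3 columns only wild type at - Fe stands apart (PSAG at 99.0 to 146, AT5G26610 at 4217 to 4954), whereas in the last 2 columns both wild type groups do.

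The NAS genes were the insertion targets, and 3 of the 4 had lower signals in nas4x-1 on every array. NAS1 had 6.68, 5.33 and 10.6 in nas4x-1 and 431, 85.8 and 177 in wild type (a log2 fold change of -3.14, SE 0.357, adjusted p = 0.00888). NAS4 had 40.8, 30.9 and 1.19 in nas4x-1 and 593, 208 and 111 in wild type (-2.85, SE 0.519, adjusted p = 0.0614). NAS3 had 16.5, 10.5 and 10.1 in nas4x-1 and 66.5, 22.8 and 48.2 in wild type (-1.07, SE 0.256, adjusted p = 0.118). The fourth ran the other way, as NAS2 had 15.6, 37.1 and 37.6 in nas4x-1 and 2.52, 1.60 and 11.1 in wild type (1.12, SE 0.238, adjusted p = 0.0925). Only NAS1 fell past the threshold, and without wild type - Fe replicate 3 its adjusted p was 0.0609. By level NAS1 also met the wider rule for an exchanged pair, with SYP122, but its levels varied too much between groups for the stricter description used above. Where the probes lie relative to the insertions was not tested, so the signal does not measure loss of a functional transcript.

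At + Fe the 4 genes had the same directions as at - Fe. There NAS3 had 48.7, 35.0 and 24.6 in nas4x-1 and 355, 130 and 313 in wild type (-2.35, adjusted p = 0.00838), and NAS2 had 107, 92.3 and 109 in nas4x-1 and 3.22 to 13.4 in wild type (2.35, adjusted p = 0.00602). The test of whether the genotype difference departed between the Fe supplies (the interaction) passed for none of the 4, with adjusted p values from 0.33 to 0.757.

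**Figure D3:**
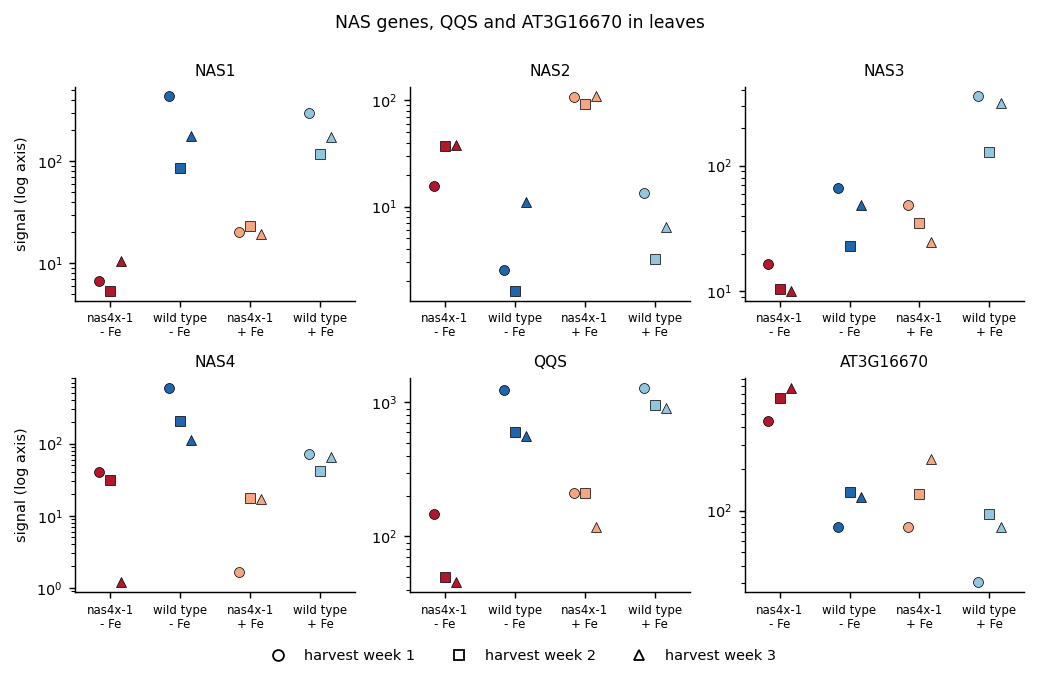
Signal (y axis, log scale) of the 4 NAS genes, QQS and AT3G16670 on the 12 leaf arrays, grouped on the x axis as nas4x-1 - Fe, wild type - Fe, nas4x-1 + Fe and wild type + Fe, with a marker shape for each harvest week. At - Fe the nas4x-1 points of NAS1, NAS3, NAS4 and QQS lie below those of wild type, those of NAS2 and AT3G16670 lie above, and AT3G16670 at 443 to 773 in nas4x-1 - Fe is above all other leaf arrays.

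Outside the pairs, QQS had the smallest adjusted p. QQS is a gene known only from Arabidopsis thaliana that affects how much starch leaves hold. It had 147, 49.9 and 45.4 in nas4x-1 and 1234, 599 and 561 in wild type at - Fe, without overlap (-3.13, SE 0.225, adjusted p = 2.48e-04). At + Fe it was also lower, with 212, 212 and 117 in nas4x-1 and 1287, 954 and 906 in wild type (-2.47, adjusted p = 0.00326). The 2 differences did not pass the interaction test (-0.67, adjusted p = 0.594). The other 3 measured genes of starch and sucrose, of 15 listed, missed the threshold, and among them the sucrose phosphate synthase gene AT4G10120 had 204, 278 and 129 in nas4x-1 and 502, 363 and 402 in wild type (-1.04, adjusted p = 0.212).

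Among the higher probe sets outside the pairs, AT3G16670 had the largest change. It had 443, 649 and 773 in nas4x-1 and 75.6, 137 and 126 in wild type (2.31, SE 0.194, adjusted p = 9.56e-04), and without the week as a block its adjusted p was 0.0917. At + Fe it had 76.0, 132 and 235 in nas4x-1 and 30.2, 93.7 and 76.0 in wild type, and this difference did not pass (0.96, adjusted p = 0.151). AT5G13100 had 179, 185 and 153 in nas4x-1 and 105, 73.9 and 61.6 in wild type (0.99, SE 0.146, adjusted p = 0.045), and it passed in 2 of the 6 fits that left out 1 of the arrays at - Fe. Of the other 2, a probe set shared by several genes had 283, 243 and 347 in nas4x-1 and 100.4, 119 and 87.5 in wild type (1.37, adjusted p = 0.0486). The last, with no gene matched here, stayed at 13.0 to 15.1 in nas4x-1 and 0.88 to 4.18 in wild type (0.72, adjusted p = 0.045), both at the low end of the arrays.

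Of the 12 lower probe sets outside the pairs, TK1A and BRCA1 belong to the list of DNA synthesis and repair and MYB3R4 to that of mitosis and cell division. XRI1, CDC27a and AT5G02220 are in neither list and stand beside them here for their known roles, a grouping made after their values were seen. In bulk leaf RNA, a different share of dividing cells and a different amount of RNA per cell cannot be told apart. The cause of these differences was not tested. TK1A, a thymidine kinase that supplies nucleotides for DNA, had 199, 194 and 211 in nas4x-1 and 449, 666 and 859 in wild type (-1.59, SE 0.168, adjusted p = 0.00493). BRCA1, which acts in repair of DNA breaks by recombination, had 0.77, 13.6 and 8.77 in nas4x-1 and 21.8, 57.0 and 84.2 in wild type (-1.50, SE 0.21, adjusted p = 0.0373). XRI1, a gene that X-rays induce, had 30.6, 33.0 and 17.5 in nas4x-1 and 78.2, 152 and 163 in wild type (-1.74, SE 0.237, adjusted p = 0.0331). As for all 26 probe sets past the threshold, no array of one genotype reached into the range of the other for these 3 genes.

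The 3 others are genes that act in cell division. MYB3R4, a transcription factor that activates genes of mitosis, had 4.18, 13.2 and 17.9 in nas4x-1 and 33.6, 92.7 and 169 in wild type (-1.88, SE 0.271, adjusted p = 0.0443). CDC27a, a subunit of the anaphase-promoting complex, had 2.12, 13.6 and 16.0 in nas4x-1 and 22.8, 48.5 and 79.3 in wild type (-1.27, SE 0.172, adjusted p = 0.0331). AT5G02220, given in the gene table as SIAMESE-RELATED 4 and thus one of a family of inhibitors of cyclin-dependent kinases, had 9.05, 3.27 and 1.63 in nas4x-1 and 29.7, 45.1 and 45.4 in wild type (-1.45, SE 0.167, adjusted p = 0.00962). CDC27a, AT5G02220 and AT5G02370 lay outside the 12 largest lower changes and were named after their values were seen. When 1 of the 6 arrays at - Fe was left out at a time, TK1A passed in 5 of 6 fits (adjusted p = 0.0545 without wild type - Fe replicate 2), AT5G02220 in 3, XRI1 in 2, and BRCA1, MYB3R4 and CDC27a in 1 each. Without the exchanged pairs the adjusted p of XRI1, BRCA1 and MYB3R4 was 0.0618.

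The remaining lower probe sets outside the pairs are named by locus or family alone. AT3G12510 had 0.65, 9.12 and 7.90 in nas4x-1 and 63.3, 56.2 and 59.6 in wild type (-1.81, SE 0.17, adjusted p = 0.0024). AT5G33300 had 3.31, 6.27 and 8.91 in nas4x-1 and 25.3, 70.9 and 120.2 in wild type (-1.84, SE 0.228, adjusted p = 0.0162). NAP5, an ABC protein, had 43.2, 68.9 and 84.2 in nas4x-1 and 225, 146 and 397 in wild type (-1.67, SE 0.233, adjusted p = 0.0373). AT5G02370 stayed at 13.8 to 14.2 in nas4x-1 and had 34.7, 74.6 and 97.2 in wild type (-1.42, adjusted p = 0.045). In the same 6 fits AT3G12510 passed in 6, AT5G33300 in 3, AT5G02370 in 2 and NAP5 in 1. For 9 of the 17 lower probe sets the nas4x-1 mean was under the offset of 16, so their fold changes are compressed.

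The + Fe arrays show which genotype at - Fe lay apart. All 3 nas4x-1 arrays at - Fe were below the other 9 leaf arrays for 1 of the 12 lower probe sets outside the pairs, and all 3 wild type arrays at - Fe were above the other 9 for 10 of the 12. For 3 of the 4 higher probe sets outside the pairs, all 3 nas4x-1 arrays at - Fe were above the other 9, and for 0 of the 4 were those of wild type below. The selection had already set the genotypes apart at - Fe, so these counts are a description. TK1A at + Fe had 160, 177 and 194 in nas4x-1 and 133, 135 and 125 in wild type, near its levels in nas4x-1 at - Fe. XRI1 at + Fe had 28.4 to 35.4 in nas4x-1 and 24.7 to 31.8 in wild type. Within wild type at - Fe the week 1 array was the lowest for TK1A, BRCA1, XRI1, MYB3R4 and CDC27a. Without that array 101 probe sets passed as lower, against 17 with it, and without the other wild type - Fe arrays 8 and 9 passed.

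**Figure D4:**
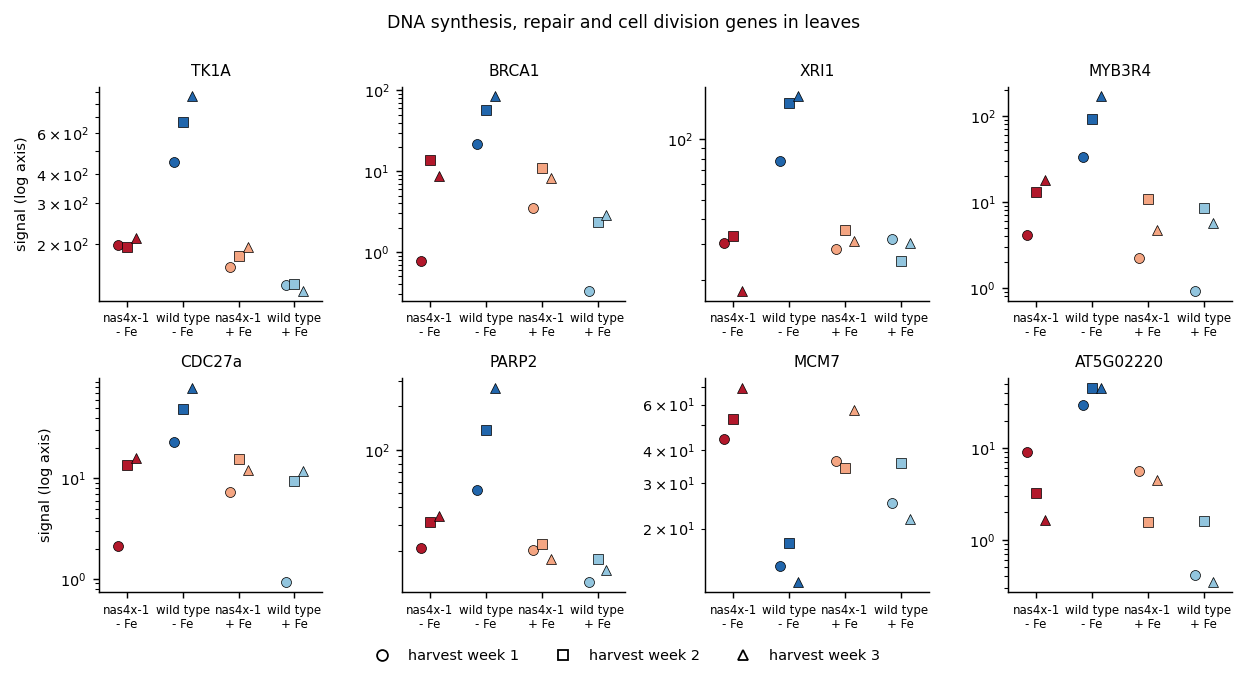
Signal (y axis, log scale) of 8 genes of DNA synthesis, repair and cell division on the 12 leaf arrays, grouped on the x axis as nas4x-1 - Fe, wild type - Fe, nas4x-1 + Fe and wild type + Fe, with a marker shape for each harvest week. Wild type at - Fe is the highest group for 7 of the 8 (TK1A at 449 to 859), and the lowest for MCM7 at 12.4 to 17.7.

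Few genes of the lists fixed for these processes passed the threshold. Of 19 listed genes of DNA synthesis and repair, 5 were measured. Of these, 2 (TK1A and BRCA1) were lower past the threshold, as 0.0747% of all probe sets were. The median log2 fold change of the 5 was -1.50, against 0.01 over all probe sets. PARP2, a poly(ADP-ribose) polymerase, had 21.0, 31.8 and 34.6 in nas4x-1 and 52.5, 138 and 269 in wild type (-1.69, adjusted p = 0.0715). TSO2, a subunit of ribonucleotide reductase, had 881, 720.4 and 375 in nas4x-1 and 1331, 1891 and 1360 in wild type (-1.26, adjusted p = 0.129). The exception was MCM7, part of the replicative helicase, with 44.1, 52.9 and 69.7 in nas4x-1 and 14.4, 17.7 and 12.4 in wild type (1.20, adjusted p = 0.0539).

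Of 20 genes of mitosis and cell division, 9 were measured by 10 probe sets, and MYB3R4 alone fell past the threshold. All 10 probe sets had a log2 fold change below 0, where 48.3% of all probe sets did, and 7 of the 10 had no overlap, as 6.45% of all probe sets did downward. Their median was -1.11 at - Fe and 0.08 at + Fe. The anaphase-promoting complex subunit APC8 had 25.2, 30.9 and 46.0 in nas4x-1 and 64.0, 93.7 and 142 in wild type (-1.18, adjusted p = 0.0696), and the centromere protein gene CENPC had 28.7, 41.5 and 53.0 in nas4x-1 and 57.0, 101 and 168 in wild type (-1.05, adjusted p = 0.094). The mitotic kinase CDKB1;2 had 7.99, 11.4 and 15.6 in nas4x-1 and 7.44, 23.2 and 37.6 in wild type (-0.42, adjusted p = 0.315), and its groups overlapped. In 4 of the 5 probe sets of the first list and 4 of the 10 of the second, the gene name came only from the study's own tables. All 5 and 9 of the 10 stand in a table of genes the study chose on these arrays, so the lists are not independent of the values.

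The test of the interaction, whether the genotype difference at - Fe departed from that at + Fe, passed for 13 probe sets (0.0572%), 5 upward (0.022%) and 8 downward (0.0352%), and for 2025 at an unadjusted p under 0.05. Of the 13, 6 were the members of the 3 pairs in which only wild type at - Fe stood apart. Of the rest, TK1A (-1.97, adjusted p = 0.0183) and AT3G12510 (-1.96, adjusted p = 0.0198) were also lower at - Fe, and AT2G20142 (-1.98, adjusted p = 0.0461, and 0.693 without the week as a block) was not past the threshold there (-0.87, adjusted p = 0.0976). BRCA1 (-1.89, adjusted p = 0.0835), XRI1 (-1.82, adjusted p = 0.154) and MYB3R4 (-1.94, adjusted p = 0.176) did not pass it. A further 4 passed through their + Fe arrays, with log2 fold changes at - Fe between -0.12 and 0.45, and they too formed 2 exchanged pairs, here with only wild type at + Fe apart. CYP72A13 (-4.15, adjusted p = 3.07e-05) had 265, 405 and 301 in nas4x-1 and 3.75, 6.99 and 3.08 in wild type at + Fe. Its partner AT2G21920 (3.99, adjusted p = 1.85e-04) had 7.37, 0.64 and 8.58 in nas4x-1 and 304, 371 and 352 in wild type. NUDX13 (3.91, adjusted p = 1.74e-04) had 14.5, 19.3 and 23.5 in nas4x-1 and 449, 349 and 377 in wild type at + Fe. Its partner CcdA (-2.91, adjusted p = 0.0109) had 380.1, 332 and 314 in nas4x-1 and 14.0, 21.4 and 20.8 in wild type. Thus 10 of the 13 were members of exchanged pairs. When the pairs at either Fe supply were left out of the fit, an alternative chosen after the data were seen, 0 probe sets passed the interaction test in limma (2015 at an unadjusted p under 0.05) and 0 in the analysis of variance after the methods (339), and the adjusted p was 0.119 for TK1A and AT3G12510 and 0.139 for AT2G20142. Without nas4x-1 + Fe replicate 1, 65 probe sets passed the interaction test, and without wild type - Fe replicate 1, 55 passed.

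None of the genes of the Fe deficiency response passed the threshold between the genotypes at - Fe in limma. At an unadjusted p under 0.05, 1 probe set was lower, beside 6.96% of all probe sets. Of 27 listed genes 19 were measured by 20 probe sets, of which 15 had a log2 fold change above 0 (51.7% of all probe sets did), with a median of 0.28. BHLH039, a transcription factor of this response, had 1023, 628 and 99.1 in nas4x-1 and 819, 127 and 7.64 in wild type in weeks 1, 2 and 3 (1.59, SE 0.789, adjusted p = 0.415). At + Fe it had 5.44 to 8.38 in nas4x-1 and 0.34 to 4.31 in wild type. BHLH101, of the same family, had 325, 165 and 23.8 in nas4x-1 and 157, 42.0 and 4.54 in wild type (1.19, SE 0.551, adjusted p = 0.374). Both were higher in nas4x-1 in each week, with log2 differences of 0.32, 2.17 and 2.28 for BHLH039 and 0.98, 1.64 and 0.95 for BHLH101. The week block was shared by the 4 leaf groups, so changes over the weeks that differed between - Fe and + Fe stayed in the SE. Missing the threshold thus does not show that the genotypes had equal levels.

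IMA1, BTS, OPT3 and FRO3 likewise had their highest signal in week 1 and their lowest in week 3 in both genotypes, and with BHLH039 they were higher at - Fe than at + Fe on every array of each genotype. IMA1, an IRON MAN peptide, had 1657, 1570 and 329 in nas4x-1 and 1561, 615 and 113 in wild type (0.94, adjusted p = 0.425). BTS, a ubiquitin ligase that restrains the response, had 1062, 846 and 369 in nas4x-1 and 944, 548 and 174 in wild type (0.60, adjusted p = 0.461). OPT3, a phloem transporter of Fe, had 1104, 888 and 540 in nas4x-1 and 891, 786 and 392 in wild type (0.31, adjusted p = 0.729). FRO3, a ferric reductase of mitochondria, had 857, 705 and 313 in nas4x-1 and 1114, 470.2 and 125 in wild type, with the order of the genotypes turned in week 1 (0.47, adjusted p = 0.688). Over the list, 9 of the 20 probe sets were higher in nas4x-1 in all 3 weeks, where 18.6% of all probe sets were, and 2 were lower in all 3. Over the list the median log2 difference was 0.05 in week 1, 0.31 in week 2 and 0.49 in week 3.

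NRAMP4 had the same pattern, with 1342, 985 and 499 in nas4x-1 and 1254, 669 and 345 in wild type at - Fe (0.39, adjusted p = 0.736). The members that follow departed from it at least in part. BTSL1, a relative of BTS, was measured by 2 probe sets, and the brighter had 65.8, 77.3 and 41.4 in nas4x-1 and 114, 87.8 and 55.9 in wild type (-0.38, adjusted p = 0.52). IRT1, the Fe importer of roots, was at 4.49, 13.0 and 21.3 in nas4x-1 and 8.78, 4.06 and 3.58 in wild type, and IRT2 and MYB72 had at most 5.87 on these 6 arrays. NRAMP3, a metal transporter of the vacuole, had 51.0, 31.0 and 87.6 in nas4x-1 and 47.5, 37.3 and 44.2 in wild type. DGAT3 had 1784, 1020.0 and 679 in nas4x-1 and 1462, 1017 and 796 in wild type at - Fe (0.02, adjusted p = 0.983), although it was lower in nas4x-1 at + Fe (-1.62, adjusted p = 0.0216). The interaction for DGAT3 did not pass (1.64, adjusted p = 0.132). Of the 20 probe sets, 14 stand in the table of genes the study chose on these arrays.

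**Figure D5:**
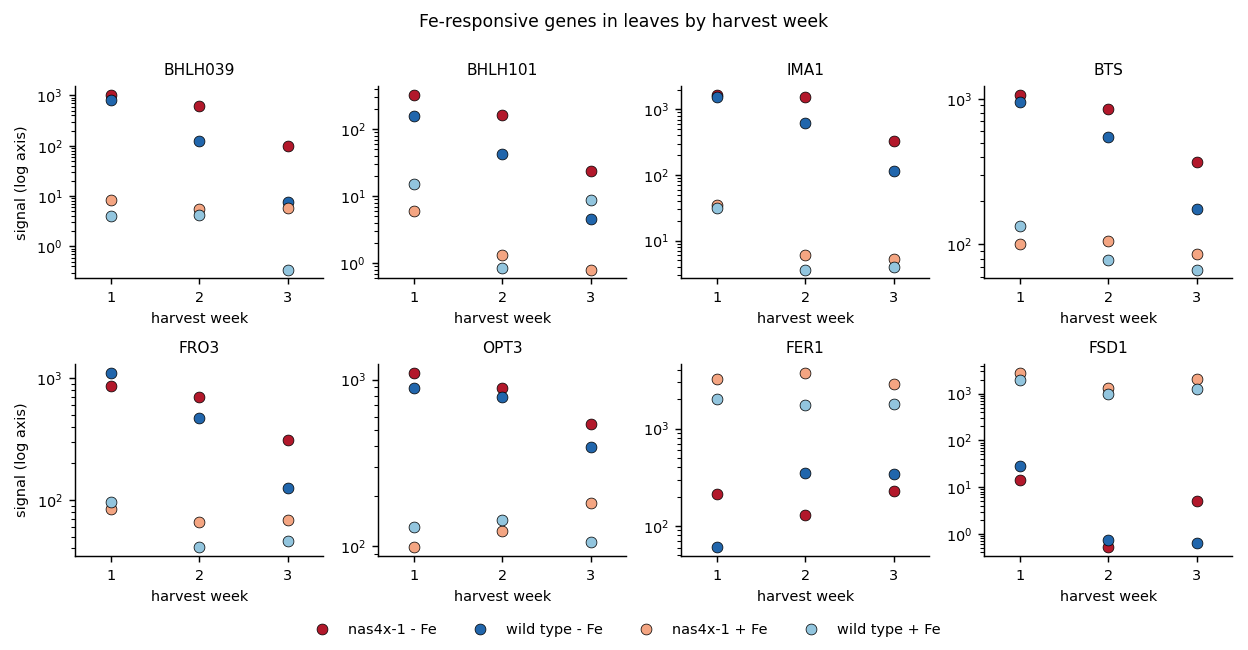
Signal (y axis, log scale) of 8 Fe-responsive genes in leaves against the harvest week (x axis), with 1 point per array for nas4x-1 - Fe, wild type - Fe, nas4x-1 + Fe and wild type + Fe. BHLH039 at - Fe had 1023, 628 and 99.1 in nas4x-1 and 819, 127 and 7.64 in wild type, and FER1 and FSD1 lay far lower at - Fe than at + Fe in both genotypes.

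FER1, FER3, FER4, FSD1 and VTL2 had lower signals at - Fe than at + Fe in both genotypes. FER2, VIT1, VTL3 and VTL4 were near the lowest signals at both Fe supplies. None of the measured genes of ferritins, superoxide dismutases and vacuolar Fe loading passed the threshold in limma, nor an unadjusted p under 0.05. FER1, a gene of the plastid Fe store ferritin, had 213, 129 and 228 in nas4x-1 and 60.3, 354 and 345 in wild type (-0.11, SE 0.48, adjusted p = 0.96). At + Fe it had 3234, 3775 and 2862 in nas4x-1 and 2030, 1743 and 1788 in wild type (0.82, adjusted p = 0.65). FER3 had 38.0, 96.0 and 154 in nas4x-1 and 35.2, 124 and 117 in wild type at - Fe, and at + Fe 724, 1030 and 725 in nas4x-1 and 142, 274 and 319 in wild type (1.74, adjusted p = 0.0687). The median over the 4 ferritins was -0.04 at - Fe and 0.81 at + Fe, and none of the 4 interactions passed, with -1.71 for FER3 (adjusted p = 0.219) the largest. FSD1, an Fe superoxide dismutase, had 14.3, 0.51 and 5.15 in nas4x-1 and 27.7, 0.73 and 0.63 in wild type at - Fe, while at + Fe it had 1312 to 2833 in nas4x-1 and 976 to 1920 in wild type. Of 4 genes for loading Fe into the vacuole, VTL2 was the brightest, with 45.4, 31.3 and 32.2 in nas4x-1 and 34.1, 45.2 and 60.1 in wild type (-0.25, adjusted p = 0.703).

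None of the transporters of metal-nicotianamine complexes passed in limma, nor at an unadjusted p under 0.05. The 8 YSL genes had log2 fold changes between -0.28 and 0.31, with a median of 0.02. YSL1 had 44.7, 48.4 and 55.9 in nas4x-1 and 40.4, 45.5 and 82.6 in wild type (-0.10, adjusted p = 0.867), and YSL3 had 87.9, 85.4 and 145 in nas4x-1 and 77.1, 69.1 and 95.9 in wild type (0.31, adjusted p = 0.477). Among 18 measured genes of Zn transport and its regulators, 0 passed and the median was -0.03. At an unadjusted p under 0.05, 2 were higher, as 6.92% of all probe sets were. The largest difference was that of ZIP9, a Zn transporter gene, with 17.3, 40.3 and 29.1 in nas4x-1 and 15.7, 5.07 and 8.93 in wild type (0.78, adjusted p = 0.249).

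For Cu, 0 of the 9 probe sets of Cu transport and Cu proteins passed in limma, and 3 of the 9 had no overlap, all lower. At an unadjusted p under 0.05, 1 was higher and 3 were lower, beside 6.92% and 6.96% of all probe sets. RAN1, a Cu pump that loads ethylene receptors, had 93.6, 124 and 106 in nas4x-1 and 150.1, 167 and 156 in wild type (-0.49, SE 0.115, adjusted p = 0.112). CCH, a Cu chaperone, had 586, 467 and 307 in nas4x-1 and 912, 630 and 677 in wild type (-0.71, SE 0.176, adjusted p = 0.122). HMA5, a second Cu pump, had 22.8, 24.2 and 23.0 in nas4x-1 and 27.5, 50.2 and 78.0 in wild type (-0.72, adjusted p = 0.207). The Cu/Zn superoxide dismutase CSD2 had 2480, 2499 and 3515 in nas4x-1 and 2811, 3153 and 3211 in wild type (-0.13, adjusted p = 0.882). In the study's metal homeostasis category, 139 probe sets measured 138 of 151 genes, and NAS1 alone passed, lower. The category's median was -0.01, and 13 of the 139 had no overlap upward and 16 downward, beside 7.74% and 6.45% of all probe sets.

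Few nuclear genes of photosynthesis were measured, 3 of 13 listed for photosystem I, 3 of 13 for photosystem II, 3 of 21 for light-harvesting proteins and 1 of 9 for electron carriers, and PSAG alone of these passed. The other 2 photosystem I subunits had log2 fold changes of 0.10 and -0.03. The photosystem II assembly factor PSB27 had 2169, 2466 and 2621 in nas4x-1 and 1747, 2121 and 1928 in wild type (0.32, adjusted p = 0.403). The light-harvesting gene LHCB4.2 had 4558, 4217 and 4217 in nas4x-1 and 3865, 3818 and 3998 in wild type (0.15, adjusted p = 0.686). Both were without overlap and missed the threshold. PGRL1B, which acts in cyclic electron flow, had 261, 179 and 134 in nas4x-1 and 358, 272 and 210 in wild type (-0.53, SE 0.106, adjusted p = 0.0823, unadjusted p = 5.87e-04), and it was lower in each week.

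Among 20 plastid-encoded genes, 0 passed in limma. At an unadjusted p under 0.05, 2 were lower, as 6.96% of all probe sets were. The lowest was psbA, for the D1 protein of photosystem II, with 1107, 999 and 669 in nas4x-1 and 2162, 1177 and 2480 in wild type (-1.02, adjusted p = 0.129), without overlap. The large Rubisco subunit gene rbcL had 471, 325 and 431 in nas4x-1 and 447, 781 and 1154 in wild type (-0.85, adjusted p = 0.278). Of 7 measured genes of tetrapyrrole synthesis, the pathway to chlorophyll and heme, 5 were higher in nas4x-1 in all 3 weeks, where 18.6% of all probe sets were. Of the 7, 0 passed in limma, and 3 were higher at an unadjusted p under 0.05, where 6.92% of all probe sets were. CHLI2, a subunit of magnesium chelatase, had 222, 364 and 373 in nas4x-1 and 145, 247 and 180 in wild type (0.69, adjusted p = 0.225), and HEMB1, for an early enzyme of the pathway, had 458, 682 and 870.1 in nas4x-1 and 394, 486 and 492 in wild type (0.50, adjusted p = 0.221).

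Stress lists held few or no genes past the threshold. Of the 10 measured probe sets of salicylic acid and WRKY genes, only SYP122 passed, as a member of a pair, and the other 9 had log2 fold changes between -0.69 and -0.09 without passing. Of the 10, 9 stand in the table of genes the study chose on these arrays. All 9 probe sets of alternative oxidase and mitochondrial stress were below 0, as 48.3% of all probe sets were, without passing in limma (median -0.48). Of these, 3 had an unadjusted p under 0.05, as 6.96% of all probe sets did downward, and 7 stand in the same table. Neither list is thus independent of the values. The weeks differed, since 6 of the 9 were above 0 in week 2. Only 1 of the 9 was lower in all 3 weeks (11.1%, against 16.8% of all probe sets). Among them UGT74E2 had 0.56, 88.2 and 21.9 in nas4x-1 and 54.5, 65.3 and 284 in wild type (-1.57, SE 0.566, adjusted p = 0.254), with the order of the genotypes turned in week 2. The cold-response gene COR47 had 463, 1065 and 452 in nas4x-1 and 1188, 1743 and 1417 in wild type (-1.22, adjusted p = 0.118), and COR15B had 93.8, 1199 and 441 in nas4x-1 and 489, 1500 and 867 in wild type (-1.16, adjusted p = 0.253). The 6 measured chaperones of the endoplasmic reticulum had log2 fold changes between -0.17 and 0.12.

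There were 63 probe sets just outside the threshold, with an adjusted p between 0.05 and 0.06, and those named here were chosen after their values were seen. SWEET11, which exports sucrose towards the phloem, had 640, 369 and 200 in nas4x-1 and 1024, 1056 and 871 in wild type (-1.40, SE 0.241, adjusted p = 0.0539). AAP2, an amino acid permease of the phloem, had 234, 221 and 158 in nas4x-1 and 479, 583 and 643 in wild type (-1.42, SE 0.244, adjusted p = 0.0539). The metallothionein gene MT2A had 1058, 1151 and 621 in nas4x-1 and 1986, 2352 and 1620 in wild type (-1.09, SE 0.19, adjusted p = 0.0547). The Aurora kinase gene AUR3 had 14.5, 6.97 and 13.0 in nas4x-1 and 28.2, 66.2 and 76.9 in wild type (-1.35, adjusted p = 0.0562). Higher in value in nas4x-1 were LTP6, a lipid transfer protein gene, with 131, 227 and 119 in nas4x-1 and 34.2, 31.8 and 16.4 in wild type (1.99, adjusted p = 0.0539), and SDD1, a protease that limits stomatal density, with 25.8, 41.8 and 44.4 in nas4x-1 and 5.73, 14.5 and 10.2 in wild type (1.03, adjusted p = 0.0528).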

How the data were processed

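The study has 24 ATH1 arrays, with 3 in each of 8 groups, 1 per harvest week. The intensities as deposited were computed by the authors with MAS 5 in GCOS, scaled to a target, quantile normalized and left on a linear scale. Raw image files and detection calls were not used here. The medians of the 12 leaf columns were 37.8 to 37.9. The table lists 22810 probe sets. Leaving out 64 controls gave 22746 to test. A single gene was assigned to 13707 of these (13513 through the platform table, 194 through the study's own tables alone, in part chosen on these arrays), several genes to 505 and none to 8534. A gene counts as measured if a probe set was assigned to no other gene. Names of loci follow the RefSeq table of TAIR10.1, and no sequence or coordinate was used.

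The 12 leaf arrays were quantile normalized again (largest change 0.00311 on the log2 scale), and log2(signal + 16) was fitted with limma 3.58.1 in R 4.3.3, with 4 groups, the harvest week as a block, an intensity trend, and two-sided p-values adjusted by Benjamini-Hochberg, threshold 0.05. The scripts were tested on simulated data. Printed levels are signals after this second normalization. The design text gives the weeks as the replicates, and deviations from the group means correlated at 0.17 to 0.505 within a week and -0.447 to 0.122 between weeks, so the numbers pair the arrays. With 3 arrays against 3 the smallest exact two-sided p is 0.1, so single values were not tested outside the fit.

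An exchanged pair consists of 2 probe sets that changed by at least 1.5 in opposite directions without overlap, with the summed gap between their exchanged levels under 0.6 the same member brighter on all 3 arrays of each leaf group, the SD of both the brighter and the dimmer signal over the 12 leaf arrays under 0.6 (all log2), and each being the other's best partner. Without the brightness, SD and best-partner conditions there were 29 pairs among 27 probe sets, and with changes of at least 3 there were 3, among them SYP122 with NAS1.

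Named genes were drawn from the 12 largest changes per direction, or fewer. These were single-gene probe sets past the threshold and of 1 sign in all weeks. Also drawn on were up to 4 members of each list past the threshold, or the 2 of largest change where none passed. Every measured member of the NAS, ferritin, vacuolar Fe loading, Fe deficiency, superoxide dismutase, Cu and YSL lists was a candidate too. The text does not print all of these, and those left out, such as ORG1, PYE, AT5G05250, CCS and COPT1, missed the threshold. The comparison, the members and the lists were chosen with earlier results of these data known, so no set test was made. No gene of the lists of abscisic acid synthesis (10 genes), cellulose synthases (10) and phloem and xylem markers (8) was measured. The measured gene of ethylene response factors (1 of 14), both of catalases and ascorbate peroxidases (2 of 10) and the 5 of coumarin synthesis (of 6) did not pass. Alternatives were the fit without the block, other normalizations and offsets, no trend, a filter on dim probe sets, only the 6 arrays at - Fe, an analysis of variance after the methods, the pairs left out, and each array left out.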

Additional observations from a re-analysis of the deposited data

Results flagged for a closer look

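The genotype difference in leaves departed between - Fe and + Fe, by the interaction test in limma, for 13 probe sets. Among those the text names at - Fe, the interaction on the log2 scale was 5.09 for PSAG and -5.20 for AT5G26610, 2.93 for AT3G14100 and -2.74 for FRS12, and 2.86 for SYP122 and -3.87 for AT1G32760. These 6 are the members of 3 exchanged pairs. For AT3G12510 it was -1.96 and for TK1A -1.97, both outside the pairs and both with wild type at - Fe above the other leaf arrays, and without the exchanged pairs at either Fe supply the adjusted p of both was 0.119. Of the other 5, 4 are the members of 2 pairs with wild type at + Fe apart. Whether the values of the pairs were exchanged in the deposited table was not tested.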

How the results depend on the processing

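The values as deposited and quantiles over all 24 arrays left the counts at 9 higher, 17 lower and 13 for the interaction. The fit without the replicate block, that is without pairing by week, gave 5 higher and 10 lower. An offset of 1 gave 24 and 62, and one of 32 gave 11 lower. Without the dimmest 40% of probe sets, 77 were higher, 113 lower and 20 passed the interaction. Fitting only the 6 arrays at - Fe gave 5 and 3, and the analysis of variance after the methods 3, 2 and 4. Without the pairs of the wider rule 1, 5 and 6 passed, and without the exchanged pairs 1, 6 and 6. Without those at either Fe supply, an alternative chosen after the data were seen, 1, 6 and 0 passed. An adjusted p of 0.1, chosen after the data were seen, gave 101, 178 and 28. Leaving out 1 array at a time gave 6 to 23 higher, 8 to 101 lower and 9 to 65 for the interaction. The highest of these came without nas4x-1 - Fe replicate 1 (23 higher, 26 for the interaction), without wild type - Fe replicate 1 (101 lower, 16 higher, 55 for the interaction) and without nas4x-1 + Fe replicate 1 (65 for the interaction). Without nas4x-1 - Fe replicate 2, 18 were higher, and 9, 9 and 8 were lower without nas4x-1 - Fe replicate 3, wild type - Fe replicate 2 and replicate 3. The cause was not tested. None of the 24 single-gene probe sets past the threshold was reversed in these fits. PSAG, SYP122, AT3G14100 and AT5G26610 passed in all 15 alternatives that tested them, QQS in 17 of 18, AT3G16670 in 16 of 18, TK1A in 15 of 18, and NAS1 in 14 of 17. Those past the threshold in the fewest were CDC27a (4 of 17), MYB3R4 (5 of 18), BRCA1 (5 of 17), AT3G24080 (5 of 15), NAP5 (6 of 17), AT5G13100 (7 of 18) and AT5G02370 (7 of 18), and XRI1 passed in 9 of 17, AT5G33300 in 11 of 18 and AT5G02220 in 11 of 17. Signals near the low end of the arrays carry no depth or detection call here, so the fold changes of dim genes depend on the offset, as for NAS1 (-2.51 to -4.69).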
